A study of Homo sapiens with 10 samples.

Results

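SNORD116 and SNORD115 are families of box C/D small nucleolar RNAs (snoRNAs) encoded in tandem on human chromosome 15q11-q13, and their levels were examined here in cell lines made from BEAS-2B, an immortalized line of human bronchial epithelial cells. The members are every row of the expression table whose array annotation held a symbol starting with SNORD116 or SNORD115, which gave 57 of 28869 rows, of which 29 were SNORD116 rows and 28 were SNORD115 rows. The family was chosen for its measured levels, since SNORD116-15 and SNORD116-14 were among the rows lowest in the chromate lines relative to control lines, so the differences between those groups are given for the members as a description, without a test. The RNA of 10 cultures was hybridised, 1 array each, to the Affymetrix Human Gene 1.0 ST array, a whole-transcript design in which each row summarises the probes of 1 transcript cluster.

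The 3 control lines came from untreated cells that had formed small colonies in soft agar by themselves. The 3 Cr_small and the 3 Cr_large lines came from cells exposed to 0.5 µM potassium chromate, a Cr(VI) salt, for 30 days before 3 weeks in soft agar, from colonies matched in size to the control colonies and from large colonies, respectively. Parental BEAS-2B cells, not passed through agar, were measured on 1 array. Each line was expanded as a monolayer from 1 colony, so it stands for the progeny of 1 cell, and repeats of the chromate exposure are not described. The label's treatment text gives the chromate exposure for every array, controls and parental cells included. The groups therefore follow the titles and cell types in the labels. Levels are log2 of the deposited intensity throughout, and a difference of 1 is 2-fold.

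Box C/D snoRNAs of most families guide 2'-O-methylation of ribosomal RNA, whereas SNORD116 and SNORD115 have no established ribosomal target. Both are cut from introns of 1 long host RNA, SNHG14, which starts in the SNURF-SNRPN region and is transcribed in most tissues from the paternal chromosome only. The SNORD116 copies come first along the host and the SNORD115 copies follow, and the far end of the host runs antisense to UBE3A, which is transcribed from the maternal chromosome in neurons. Loss of the paternal SNORD116 copies is linked with Prader-Willi syndrome. SNORD115 is known mainly from brain, where it matches a sequence in the RNA of the serotonin receptor HTR2C.

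RefSeq (GRCh38.p14) places 30 SNORD116 copies at chr15:25051476-25108352 and 48 SNORD115 copies at chr15:25170723-25269858, both on the strand of the host. The SNORD116 copies are 85 to 104 bases long (median 94), each cut from a host intron. The SNURF start region is shown, since every member lies downstream of it, beside that of UBE3A, which is read from the other strand. RefSeq also annotates a longer SNHG14 that starts upstream, at position 24823608 of the chromosome, and the arrays do not show which start is used. Capitals mark CG, the dinucleotide that is methylated on the silent maternal copy of the SNURF-SNRPN start. The SNURF window is chr15:24954737-24954986 (+) and the UBE3A window is chr15:25439057-25439306 (-), each the 250 bases before the RefSeq start.
SNURF start region: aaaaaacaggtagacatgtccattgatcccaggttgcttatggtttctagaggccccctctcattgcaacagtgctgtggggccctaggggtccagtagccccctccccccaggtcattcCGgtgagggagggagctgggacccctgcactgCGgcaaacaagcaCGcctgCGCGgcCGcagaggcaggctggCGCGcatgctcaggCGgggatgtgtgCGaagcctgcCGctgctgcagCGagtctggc
UBE3A start region: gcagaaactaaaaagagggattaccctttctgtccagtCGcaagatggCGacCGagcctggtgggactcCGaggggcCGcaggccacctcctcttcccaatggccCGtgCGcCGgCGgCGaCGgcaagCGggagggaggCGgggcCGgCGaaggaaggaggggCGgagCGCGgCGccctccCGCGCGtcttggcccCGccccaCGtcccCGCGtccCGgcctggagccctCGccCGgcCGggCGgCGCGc
The SNURF window held 12 CG and the UBE3A window 33, against a median of 11 over 35116 windows of the same length, and 48.5% and 8.15% of the windows held as many. GCGCATGC, the core of the site of the transcription factor NRF1, was searched on both strands. It shares bases with 2 of the CG in the SNURF window, is not among these letters of the UBE3A window, and occurs in 2.63% of all windows. Methylation, factor binding and the parental origin of the RNA were not measured here.

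The array resolved the repeated copies unevenly. Among the SNORD116 rows 21 were annotated to 1 copy and 8 to several copies, and 29 of the 30 RefSeq copies were in some row. Among the SNORD115 rows 22 were annotated to 1 copy and 6 to several, and 42 of the 48 copies were in some row. In 3 pairs, the SNORD116 rows shared the same copies: rows 7981953 and 7981966, rows 7981958 and 7981962, and rows 7981982 and 7981986, and within a pair no array differed by more than 0.0118. Such pairs are near repeats of 1 measurement, and the signal of near-identical copies cannot be assigned to 1 of them.

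The SNORD116 rows were lower in the chromate lines. The mean over the 6 Cr lines was below the control mean in 28 of 29 rows, and in 20 rows all 6 Cr lines lay below all 3 control lines, against 7.84% of all rows on the array. In 11 rows the Cr mean was also at least 2-fold lower, against 0.901% of all rows. No SNORD116 row had all Cr lines above all control lines, an order seen in 8.85% of all rows. The median difference over the 29 rows was -0.36, beside 0.0131 over all rows. The family was chosen on this contrast, so nothing is read from these shares. In bulk RNA, fewer cells with the RNA and less of it per cell cannot be told apart.

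**Figure D1:**
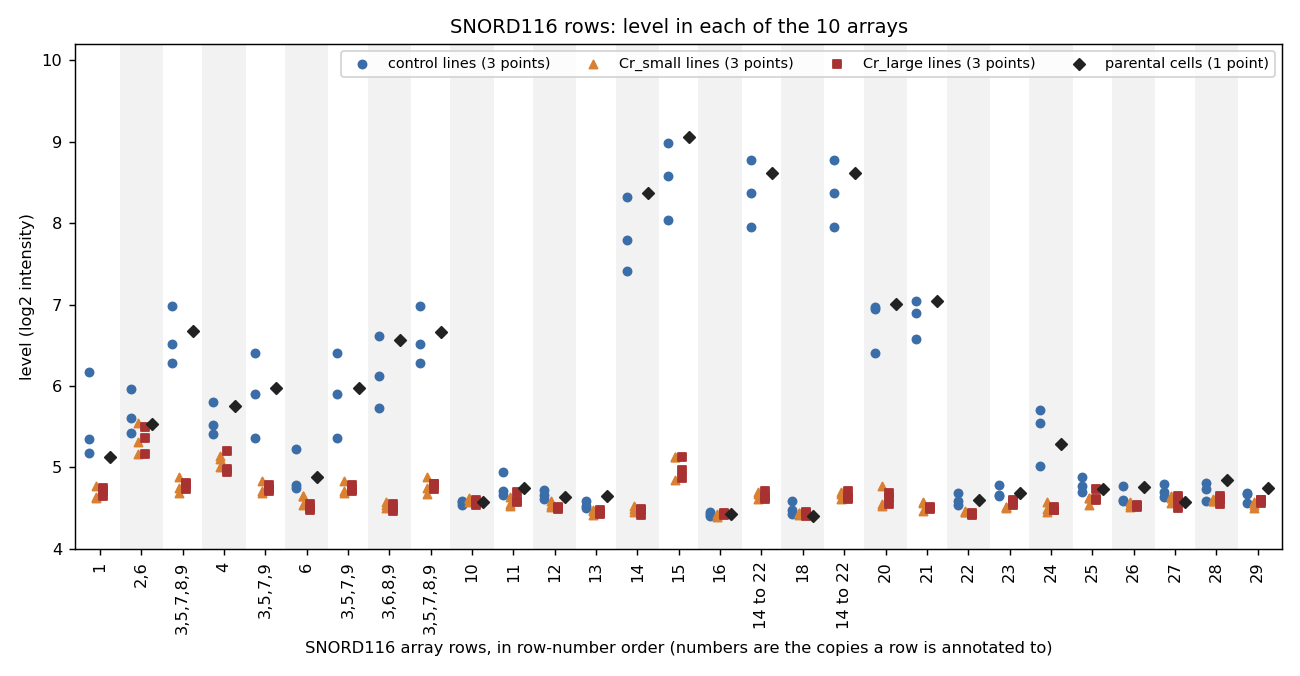
Level (log2 intensity, vertical axis) of each of the 29 SNORD116 rows in row-number order, with 1 point per array for the control, Cr_small and Cr_large lines and the parental cells. The control lines and parental cells stand clear of the 6 Cr lines in the rows for copies 14, 15, 20 and 21, in the rows for copies 14 to 22 together and in the rows that join copies 3 to 9, while rows such as those of copies 10, 16 and 18 lie near 4.5 in every array.

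The rows for copies 14 to 22 showed the largest differences. SNORD116-14 (chr15:25080141-25080234) was 7.80, 8.32 and 7.41 in control lines 1, 2 and 3, 4.45, 4.49 and 4.53 in the Cr_small lines and 4.49, 4.48 and 4.41 in Cr_large, with 8.37 for the parental cells. The 6 Cr lines lay within 0.115 of one another and the control lines spread over 0.91. The control mean was 7.84 ± 0.457 (SD, n = 3) and the Cr mean 4.48 ± 0.0395 (SD, n = 6), a 10.3-fold difference. The Cr values lie near the lowest intensity of the table, so the folds given for this row and the others near it depend on the scale, as set out further on.

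SNORD116-15 (chr15:25081286-25081379) was 8.58, 8.98 and 8.03 in the control lines, 4.84, 5.13 and 5.12 in the Cr_small lines and 4.87, 4.97 and 5.13 in Cr_large, with 9.05 for the parental cells. Its Cr lines were again all below its control lines, by 11.5-fold on average. The paired rows 7981982 and 7981986, which are annotated to the 9 copies from 14 to 22, had the largest differences of all members, -3.71 and -3.72, or 13.1-fold. Row 7981982 was 8.37, 8.78 and 7.95 in the control lines, 4.67, 4.61 and 4.69 in the Cr_small lines and 4.64, 4.61 and 4.71 in Cr_large, with 8.62 for the parental cells.

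SNORD116-20 (chr15:25087661-25087754) was 6.97, 6.94 and 6.41 in the control lines, 4.55, 4.77 and 4.52 in the Cr_small lines and 4.64, 4.56 and 4.68 in Cr_large, with 7.01 for the parental cells, a difference of -2.15. SNORD116-21 (chr15:25088803-25088896) was 6.89, 7.04 and 6.57 in the control lines, 4.58, 4.47 and 4.57 in the Cr_small lines and 4.51, 4.50 and 4.49 in Cr_large, with 7.04 for the parental cells, a difference of -2.32. In both, the lowest control line stood above the highest Cr line, by 1.64 in SNORD116-20 and by 1.99 in SNORD116-21.

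The other rows past 2-fold, 5 in number, were annotated to several copies of the 3 to 9 range. Copies 3, 5, 7, 8 and 9 have no row of their own and could not be read singly. The single-copy rows of that range, SNORD116-4 and SNORD116-6, did not pass 2-fold. Row 7981953, annotated to copies 3, 5, 7, 8 and 9, was 6.52, 6.99 and 6.28 in the control lines, between 4.69 and 4.89 in the 6 Cr lines (median 4.77) and 6.67 in the parental cells, a 3.53-fold difference. Row 7981964, for copies 3, 6, 8 and 9, was 6.12, 6.62 and 5.73 in the control lines, 4.47 to 4.57 in the Cr lines (median 4.52) and 6.56 in the parental cells, a 3.10-fold difference. Row 7981958, for copies 3, 5, 7 and 9, was 5.90, 6.41 and 5.36 in the control lines, 4.68 to 4.83 in the Cr lines (median 4.73) and 5.97 in the parental cells. Its difference was 2.21-fold, the smallest among the 11 rows.

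Just outside the 2-fold limit lay SNORD116-24 and SNORD116-1. SNORD116-24 was 5.71, 5.55 and 5.02 in the control lines, 4.45 to 4.58 in the Cr lines and 5.28 in the parental cells, a difference of -0.93. SNORD116-1, the copy nearest the start of the host, was 5.35, 6.18 and 5.18 in the control lines, 4.62 to 4.77 in the Cr lines and 5.12 in the parental cells, a difference of -0.88. SNORD116-4 differed by -0.52 and SNORD116-6 by -0.36, both with no overlap between the groups. The row joining copies 2 and 6 was 5.96, 5.61 and 5.42 in the control lines and 5.16 to 5.54 in the Cr lines, and these ranges overlapped.

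The remaining SNORD116 rows carried little signal in any culture. Of the 18 rows that were not 2-fold lower, 14 had a control mean under 5, and all of these were annotated to 1 copy, with differences from -0.36 to 0.0193. Across these 14 rows no value in any line was above 5.23, while the median of all values in the table was 5.86. SNORD116-16, for instance, was 4.45, 4.43 and 4.41 in the control lines and 4.40 to 4.44 in the Cr lines. The deposited table carries no detection call. Whether such a copy is silent in BEAS-2B cells or is missed by its probes cannot be told apart, and its small difference sets no limit on a change of that copy. This includes SNORD116-16, SNORD116-18 and SNORD116-22, which the rows for copies 14 to 22 also cover.

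The counts by position along the cluster follow, with the limit that rows low in the control lines could not be 2-fold lower. The SNORD116 copies are commonly divided by sequence into copies 1 to 9, 10 to 24 and 25 to 30. Of the 9 rows for copies 1 to 9, 5 were at least 2-fold lower without overlap and the median difference was -1.15. Of the 15 rows for copies 10 to 24, 6 were, with a median of -0.17. Of the 5 rows for copies 25 to 29, none was, their differences ran from -0.17 to -0.0762, and only SNORD116-26 had no overlap. The control means of these 5 rows were 4.64 to 4.79, so nothing about these copies is read from them. Rows annotated to several copies made up 7 of the 11 rows and single-copy rows made up 4. When rows with the same copies were averaged, 8 remained past 2-fold.

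**Figure D2:**
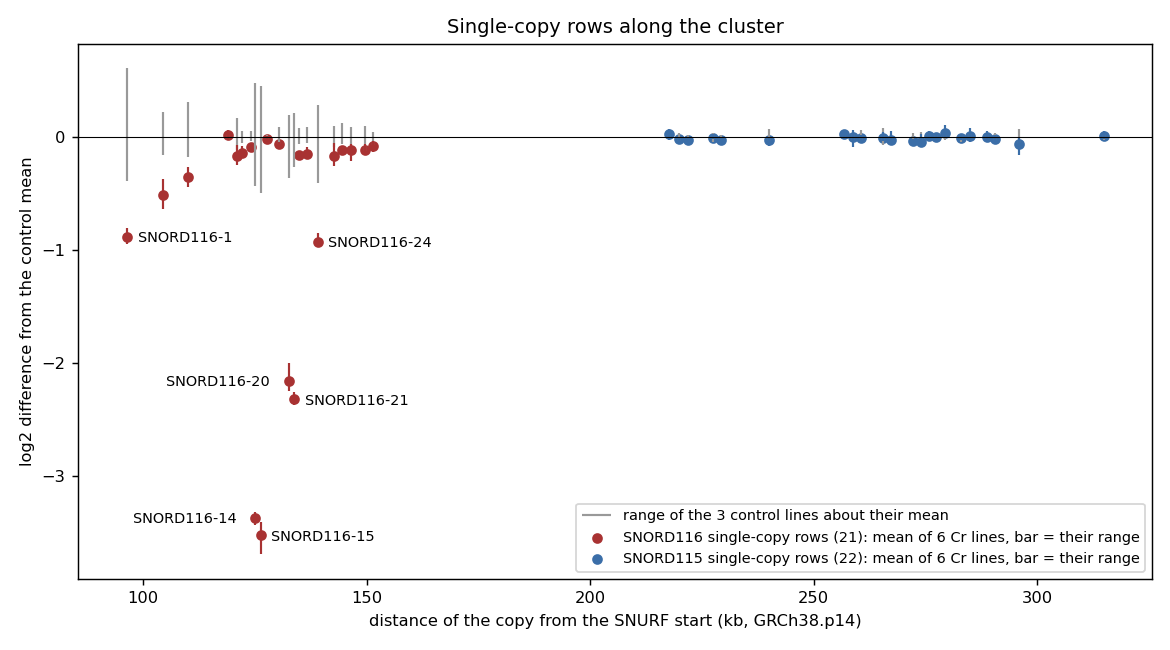
Log2 difference from the control mean (vertical axis) for the 21 SNORD116 and 22 SNORD115 single-copy rows against the distance in kb of the copy from the SNURF start. Points are means of the 6 Cr lines with the range of those lines, and grey bars are the range of the 3 control lines; SNORD116-14 and SNORD116-15 lie lowest, with near-zero copies on both sides of them, and every SNORD115 point lies near 0.

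Each colony size was also set against the control lines, which the comparisons therefore share. The rows given were picked because the Cr lines of both sizes lay below the control lines, so that both sizes are lower is no result. SNORD116-14 was lower by a log2 difference of -3.35 in the Cr_small and -3.38 in the Cr_large lines, SNORD116-15 by -3.50 and -3.54, SNORD116-20 by -2.16 and -2.15 and SNORD116-21 by -2.30 and -2.34. The median over the 11 rows was close in all Cr lines, 4.67, 4.71 and 4.69 in the Cr_small and 4.64, 4.61 and 4.71 in the Cr_large lines, and was 6.89, 6.99 and 6.41 in the control lines.

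Cr_large was tested against Cr_small directly, since that contrast was not used to choose the family. The members had little signal in either group, with Cr means of 4.48 to 5.01 in the 11 rows and 4.38 to 4.62 in the SNORD115 rows. A still lower level in 1 group could therefore hardly have been seen, whereas a raised level could, if the probes detect the snoRNA. No member passed, and no row on the array did (0% of 28869; limma, 4 group means over 10 arrays, Benjamini-Hochberg adjusted p under 0.05). The smallest adjusted p of a member was 1.00. At an unadjusted p under 0.05 limma gave 0 of 57 members and 1266 of all rows, which is 4.39%. The differences of the SNORD116 rows ran from -0.11 to 0.0613. For SNORD116-14 the difference was -0.0281 with a 95% confidence interval from -0.47 to 0.41, and for SNORD116-15 it was -0.0457, from -0.54 to 0.45. The intervals rest on a spread pooled over the groups, to which the control lines add most for these rows.

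**Figure D3:**
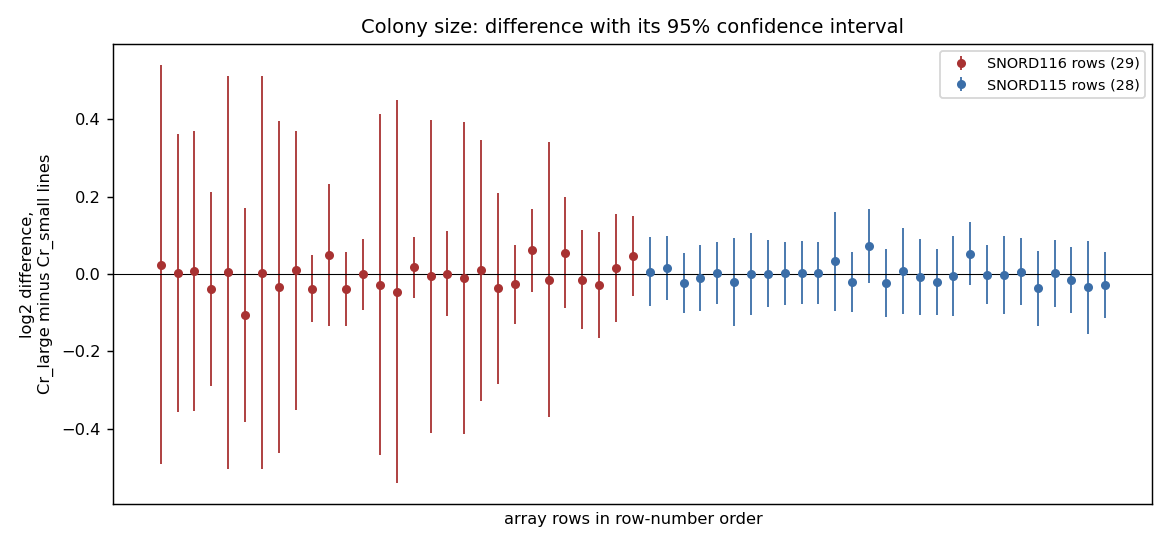
Log2 difference between Cr_large and Cr_small lines (vertical axis) for the 29 SNORD116 and 28 SNORD115 rows in row-number order, with bars for the 95% confidence interval of the limma fit. All intervals include 0, and they are widest for SNORD116 rows, between -0.54 and 0.54 in all.

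In the 11 rows the SD was 0.241 to 0.525 over the 3 control lines and 0.0394 to 0.135 over the 6 Cr lines. These rows were picked for being high in the control and low in the Cr lines, where intensities near the bottom of the scale are compressed, so the spreads of the groups are not compared. Control line 3 was the lowest control line in 11 of the 11 rows and control line 2 the highest in 10, the exception being SNORD116-20, where lines 1 and 2 were 6.97 and 6.94.

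The parental cells lay above all 6 Cr lines in 24 of the 29 SNORD116 rows. They lay inside the range of the 3 control lines in 20, above it in 6 and below it in 3. In the 11 rows, which were picked for low Cr lines, they lay inside the control range in 8 and above it in 3, which were SNORD116-14, SNORD116-15 and SNORD116-20. The median difference of control lines minus parental cells was -0.24 over the 11 rows and -0.0769 over the 29, beside 0.0011 over all rows on the array. There is only 1 parental array, so these values have no replicate check. The shares of all rows on the array with these orders were not computed, so nothing is read from the counts.

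SNORD115 showed none of this. The 28 rows lay between 4.35 and 4.71 in every array. The 10th percentile of all values in the table was 4.60. No SNORD115 row had all Cr lines below or all above the control lines, and the differences ran from -0.0628 for SNORD115-44 to 0.0372 for SNORD115-35, with a median of -0.00081. SNORD115-44 was 4.70, 4.62 and 4.58 in the control lines, 4.48 to 4.63 in the Cr lines and 4.59 in the parental cells. Rows 7982040, 7982042 and 7982044, annotated to the same 17 copies, differed by at most 0.0032 from one another on any array, and in row 7982042 the 3 control lines were 4.46, 4.44 and 4.45 and the parental cells 4.45.

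**Figure D4:**
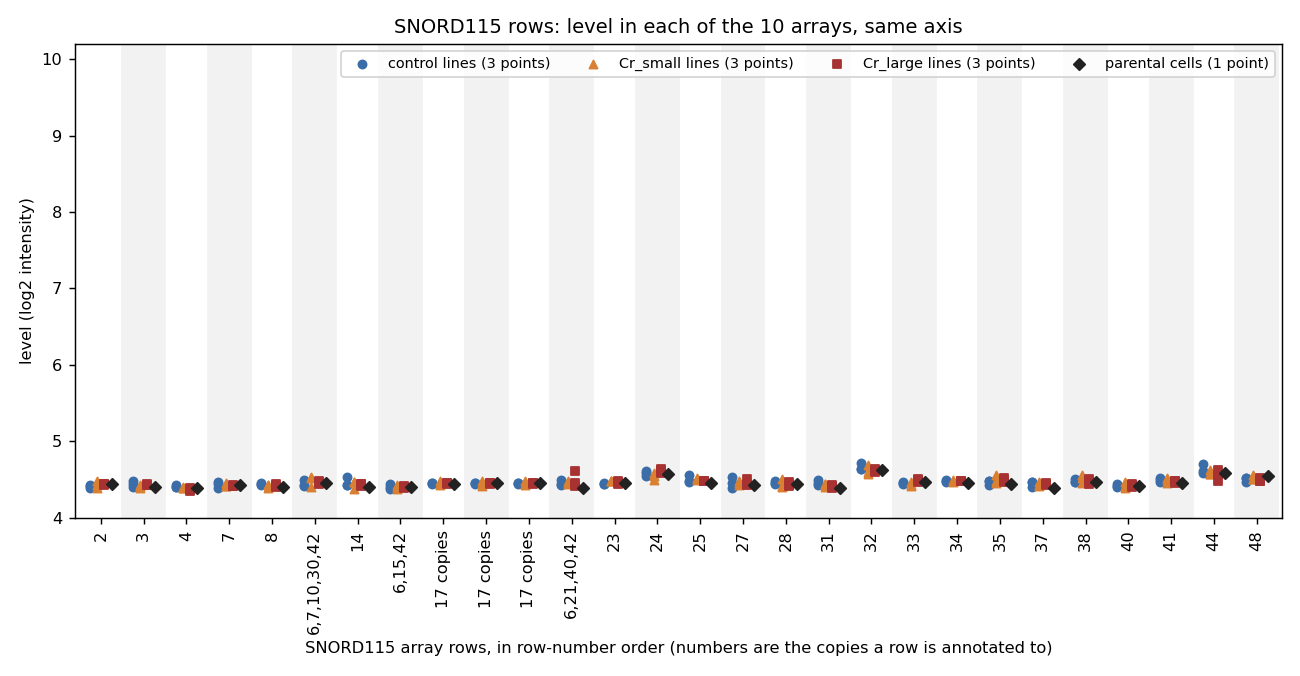
Level (log2 intensity, vertical axis, same scale as the SNORD116 plot) of each of the 28 SNORD115 rows in row-number order, with 1 point per array. The points of all groups overlap between 4.35 and 4.71 in every row.

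With every row this low, a fall in SNORD115 was not detectable in these data. A rise above these levels was not seen. Whether the probes detect these snoRNAs cannot be told, so this is not read as no change. HTR2C, the RNA with a match to SNORD115, was likewise low, 5.08 ± 0.0594 (SD, n = 3) in the control and 5.08 ± 0.0414 (SD, n = 6) in the Cr lines. A further 17 rows among the member row numbers had no symbol in the annotation. They lay between 4.39 and 4.59 and were not counted as members.

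Rows of the host transcript that are no members could be tested with limma, the mean of the Cr_small and Cr_large means against control, where 5.72% of all rows were called lower and 5.33% higher. The row for SNURF and SNRPN, which encode a small protein and a splicing protein from the first part of the host, was 6.49, 6.04 and 6.18 in the control lines, 4.76, 4.83 and 4.72 in the Cr_small lines and 4.80, 4.79 and 4.83 in Cr_large, with 6.67 for the parental cells. It fell by 1.44 ± 0.0890 (SE) on the log2 scale, with a limma adjusted p of 0.000117. The order of its control lines was not that of the SNORD116 rows, since control line 1 was the highest and control line 2 the lowest. Some members list SNRPN as a further symbol, and the rows of this region share 1 host, so this row is no independent measure of the locus. The row was also taken up after its values were seen, on the contrast that the family was chosen on. Its p-value is therefore not read as support.

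Between SNRPN and the SNORD116 copies, the row for SNORD64, a further host snoRNA, and PWAR5 was 5.06, 4.99 and 4.93 in the control lines and 4.48 to 4.69 in the Cr lines. It fell by 0.44 ± 0.0488 (SE), with a limma adjusted p of 0.00154. SNORD109A and SNORD109B are identical snoRNAs at either end of the SNORD116 and SNORD115 arrays, and their shared rows fell by 0.21 and 0.19 (limma adjusted p 0.0195 and 0.0198). Their rows cannot say which of the pair differed, and without control line 1 their adjusted p was 0.0769 and 0.0809, and without control line 2 it was 0.0651 and 0.0668. The rows with several host symbols were taken up after their values were seen, so their p-values are not read as support.

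No paternally expressed gene with a row of its own passed. Of the 15 genes listed as host or paternally expressed, 5 had a row of their own, and 0 of the 5 passed by limma (adjusted p under 0.05), 0 at an unadjusted p under 0.05 and 0 by the methods' t-test without adjustment. MAGEL2, a ubiquitin ligase regulator, was 4.83, 5.47 and 5.46 in the control lines and 5.21 to 5.95 in the Cr lines, a difference of 0.28 ± 0.194 (SE, limma adjusted p 0.454). NDN, a growth suppressor, was 4.83 ± 0.0298 (SD, n = 3) in the control and 4.80 ± 0.0433 (SD, n = 6) in the Cr lines. MKRN3 and NPAP1 differed by -0.0520 and -0.0269, and PWAR6, a noncoding RNA of the host, by -0.10. The means of the 5 over the arrays were 4.51 to 5.87, beside a median of 5.86 over all values in the table. At the control means of PWAR6 and NDN, 4.57 and 4.83, a fall could hardly have been seen. That none of the 5 passed is therefore not read as no change.

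The genes that can be read from the maternal copy did not pass. UBE3A, a ubiquitin ligase that the host overlaps in antisense, was 9.20, 8.98 and 9.12 in the control lines, 8.85, 8.92 and 8.89 in the Cr_small lines and 9.06, 8.80 and 8.88 in Cr_large, with 8.89 for the parental cells. The groups overlapped, and the difference of -0.20 ± 0.0682 (SE) did not pass (limma adjusted p 0.116), but UBE3A was called without Cr_large line 1 (adjusted p 0.0483). ATP10A, a lipid flippase, differed by -0.0232.

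Among the 13 flanking genes of the region, 12 had a row, 2 fell, 1 rose and 9 did not pass. TJP1, a tight junction protein, was 10.25, 9.96 and 10.35 in the control lines, 9.45 to 9.72 in the Cr lines and 10.11 in the parental cells, and fell by 0.58 ± 0.0931 (SE, limma adjusted p 0.00693). NIPA2, a magnesium transporter, fell by 0.27 ± 0.0528 (SE, adjusted p 0.0160). NIPA2 was no longer called without control line 1 (0.0666) or without control line 3 (0.0691). APBA2, a neuronal adaptor protein, rose by 0.88 ± 0.196 (SE, adjusted p 0.0260) and was not called without control line 1 (0.0921), control line 2 (0.0547), control line 3 (0.105) or Cr_small line 1 (0.0537). HERC2 and CYFIP1, on either side of the imprinted domain, differed by -0.33 each and did not pass (limma adjusted p 0.120 and 0.0758). HERC2 was called without control line 2, at an adjusted p of 0.00168, and so was CYFIP1, at 0.0334. In all, 3 of the 19 genes of the 15q11-q13 list with a row were called, 2 lower and 1 higher. Over all rows 5.72% were called lower and 5.33% higher, so the count is not read as a result about the region. The median difference of the 19 was -0.0281, which is the value of NDN, a gene of low level. TUBGCP5 differed by -0.25, with all 6 Cr lines below all 3 control lines (limma adjusted p 0.0516), and NIPA1 by -0.27 (0.0978). Neither passed. Of the genes with a control mean of 6.89 or more, UBE3A, TUBGCP5, CYFIP1, NIPA2, NIPA1, HERC2 and TJP1 were lower in the Cr lines. NSMCE3 was higher, by 0.10. None of the 3 called genes lies in the host transcript.

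**Figure D5:**
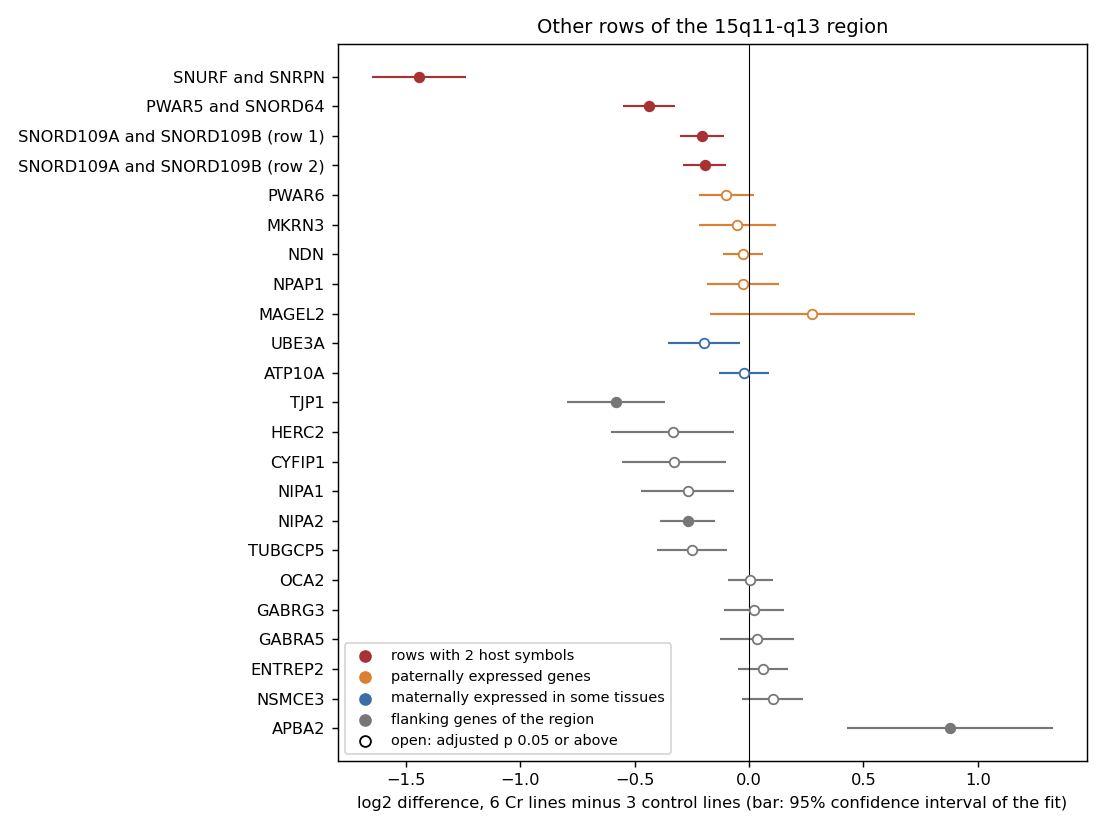
Log2 difference between the 6 Cr lines and the 3 control lines (horizontal axis) for the other rows of the region, grouped by kind, with 95% confidence intervals of the limma fit and open circles where the adjusted p was 0.05 or above. The SNURF and SNRPN row lies farthest to the left at -1.44, the 5 paternally expressed genes with a row of their own lie between -0.10 and 0.28, and TJP1 at -0.58 and APBA2 at 0.88 are the outermost flanking genes.

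The other tandem imprinted snoRNAs of the genome, SNORD113 and SNORD114 on 14q32, could not be compared in the same way. Their 6 rows had means from 4.50 to 4.68, none passed in the limma fit, and the differences ran from -0.0550 for SNORD114-6 to 0.0363 for SNORD114-2. At these levels a fall was not detectable. Of the 9 genes and snoRNAs of that locus with a row, 0 passed, and DLK1, a paternally expressed ligand, had the largest difference, 0.10 (limma adjusted p 0.286). At an unadjusted p under 0.05 limma gave 0 of 9, and so did the methods' t-test.

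No RNA for a listed protein that builds box C/D snoRNA particles was called lower, among those with a row of their own. Of 10 listed, 8 had such a row, 2 rose and 6 did not pass, beside 5.33% of all rows called higher and 5.72% called lower. The core proteins NOP56 and SNU13 had only rows with several symbols, which were not taken up. NOP58, a core protein of the particle, rose by 0.34 ± 0.0755 (SE, limma adjusted p 0.0269) and RUVBL2, an assembly ATPase, by 0.30 ± 0.0790 (SE, adjusted p 0.0479). Its partner RUVBL1 differed by 0.38 (adjusted p 0.163) and ZNHIT6, an assembly factor, by 0.24 (adjusted p 0.312). The call of NOP58 held in 12 of 18 alternatives and was lost without control line 1 (adjusted p 0.109) or 3 (0.103) and without Cr_small line 1 (0.0564) or 3 (0.0512). The call of RUVBL2 held in 5 of 18 and was lost without any 1 of the 3 control lines, the 3 Cr_small lines or Cr_large line 1 (adjusted p 0.0801 to 0.135). RUVBL1 was called without Cr_small line 3 (adjusted p 0.0140).

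Of 12 factors known from silencing of imprinted or repeated loci, 3 rose, 0 fell and 9 did not pass. Over all rows 5.33% were called higher and 5.72% lower. A part of these factors in the SNORD116 difference was not tested. ZNF274, a zinc finger protein known to bind the SNORD116 copies, was 6.68, 6.55 and 6.60 in the control lines, 6.98, 7.15 and 7.06 in the Cr_small lines and 7.29, 7.17 and 7.02 in Cr_large, with 6.66 for the parental cells. It rose by 0.50 ± 0.0677 (SE, limma adjusted p 0.00332). UHRF1, a DNA methylation maintenance factor, rose by 0.54 ± 0.132 (SE, adjusted p 0.0375) and KDM1A, a histone demethylase, by 0.25 ± 0.0628 (SE, adjusted p 0.0387), calls that held in 7 and 5 of 18 alternatives. UHRF1 lost its call without any 1 control or Cr_small line and without Cr_large line 1 or 2 (adjusted p 0.0553 to 0.0768). KDM1A lost its call without any 1 control or Cr_large line and without Cr_small line 3 (adjusted p 0.0577 to 0.121). The ZNF274 call held in 18 of 18. TRIM28 and EHMT1, a corepressor and a histone methyltransferase, differed by 0.37 and 0.33 (adjusted p 0.0905 and 0.200). The factors that were lower did not pass either. SETDB1, a histone methyltransferase that acts with TRIM28, differed by -0.29 with all 6 Cr lines below all 3 control lines (adjusted p 0.0534), and was called in 5 of 18 alternatives, among them those without Cr_large line 2 (0.0397) or 3 (0.00832). DNMT3A, a DNA methyltransferase, differed by -0.19 (adjusted p 0.0527) and was called in 3 of 18, among them that without Cr_small line 1 (0.0114). SETDB1, DNMT3A, KDM1A, NIPA2, TUBGCP5, NIPA1 and NSMCE3 were named after their values were seen.

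Folds at the low end depend on how the intensities were scaled. The 11 rows had Cr means of 4.48 to 5.01, near the bottom of a table that starts at 4.32, and RMA16 is known to add a constant of 16. With 16 subtracted from each intensity, the fold for SNORD116-14 was 34.1, for SNORD116-15 21.9 and for row 7981982 34.1, and 13 rows passed 2-fold, the 11 among them. The order of SNORD116-14 and SNORD116-15 by fold also turned, so neither is called the larger. The RNA passed a silica column after extraction, and the array does not tell a mature snoRNA from its longer host RNA. Fewer host transcripts and fewer stable snoRNAs therefore cannot be told apart.

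Cell type markers moved with the groups in part. Of 8 bronchial epithelial genes 7 had a row and 4 had a mean over 7. The median level of the list, which is the level of KRT19 in every array, was 6.07 to 6.27 in the control lines, 5.79 to 10.07 in the Cr lines and 7.58 in the parental cells. KRT8 had a mean of 11.7 in the control and 12.5 in the Cr lines, KRT18 of 11.3 and 12.2, and KRT7 of 11.3 and 11.6. CDH1, which defines epithelial cells, was at 5.02 or less and KRT5 at 5.54 or less in every array. The Cr mean was below the control mean in 2 of the 7, which were CDH1 and KRT5. Of 6 mesenchymal genes 5 had a mean over 7 across the arrays, and of these PDGFRB had a mean of 6.99 in the Cr lines and 7.45 in the control lines. The Cr mean was below the control mean in 4 of the 6 and above it in VIM and COL1A2. The median level of that list was 10.5 to 11.465 in the control lines, 10.345 to 11.363 in the Cr lines and 10.748 in the parental cells. Of 8 neuronal genes none was over 7, and their list median lay between 5.26 and 5.43 in all 10 arrays. Of 4 immune genes 3 had a row and CD68 alone was over 7. The part of these differences in the SNORD116 contrast was not tested.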

How the data were processed

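Total RNA from 9 colony-derived BEAS-2B lines and the parental cells was hybridised by the authors to Human Gene 1.0 ST arrays, 1 array per culture. The deposited values are intensities on a linear scale that the authors made in GeneSpring (version 11) by RMA16, which corrects background, normalizes by quantiles and summarises the probes of each transcript cluster; the methods also name a baseline transformation, which the values do not show. Arrays have no read depth, so precision is set by how many were run. The annotation of the array gave 1 symbol for 19310 rows, several for 1752 and none for 7807.

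Values were taken to log2 (range 4.32 to 14.05; array medians 5.82 to 5.90) with no further normalization and no filter. The members are all rows with a SNORD116 or SNORD115 symbol, kept separate. The members and all gene lists were chosen with earlier results of these data known. For listed genes, rows with 1 symbol were used, and the row with the highest mean where a gene had several. The exception was the rows with several host symbols, taken up after their values were seen. Such rows of NOP56 and SNU13 were not taken up. The plan was to name up to 4 genes of each list, those with the largest absolute difference first. More were named in the paternal, flanking and silencing lists, and these further genes do not follow that order. For the members, Cr against control is a description: the counts ask whether all 6 Cr lines lay below all 3 control lines and whether the means differed at least 2-fold. Cr_large against Cr_small, and Cr against control for other genes, were tested with limma (version 3.58.1, R 4.3.3; lmFit and eBayes, 4 group means on 10 arrays) over all 28869 rows with Benjamini-Hochberg adjustment at 0.05. The fit had 6 residual and 1.96 prior degrees of freedom, and it was tested on simulated data first. The methods' t-test was unpaired. P-values measure the spread between colony-derived lines. Positions and start regions are from RefSeq, GRCh38.p14. Sequences of the snoRNAs themselves are not shown here.

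Alternatives were a second quantile normalization, median centring, leaving out the dimmest 25% of rows, subtracting 16 from the intensity (floor 1), trend and robust moderation, only the groups compared, the methods' t-test, a replicate block, averaging rows with the same copies, and leaving out each line. No pairing of lines by number is stated.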

Additional observations from a re-analysis of the deposited data

Results flagged for a closer look

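Among the 57 member rows, 1 had a Cr line far from the other 5. In the row annotated to SNORD115-6, SNORD115-21, SNORD115-40 and SNORD115-42, Cr_large line 1 was at 4.61 and the next highest Cr line at 4.48, a gap of 0.636 of the range of the 6 lines, past the critical value of Dixon's test for 6 values. Chance alone flags about 1 in 20 such sets of values, and the whole row lay near the bottom of the table.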

How the results depend on the processing

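The count of SNORD116 rows at least 2-fold lower without overlap was 11 and stayed within 1.5 times of that in every alternative run, from 8 with same-copy rows averaged to 13 with 16 subtracted; leaving out 1 line gave 9 to 13. The SNORD115 count was 0 wherever it could be computed. With the dimmest 25% of rows left out, all 28 SNORD115 rows and 15 of the 29 SNORD116 rows dropped out, no SNORD115 value could be given, and the SNORD116 median was -1.82. With 16 subtracted it was -0.87. Centring each array on its median moved the SNORD115 median to -0.0375, a shift of all rows alike, and none of these medians was tested. Leaving out 1 line gave SNORD116 medians from -0.45 to -0.35, SNORD115 medians from -0.0081 to 0.0050 and control minus parental medians from -0.13 to 0.0103. Between Cr_large and Cr_small 0 members were called in each limma alternative. The methods' t-test called 0 members after adjustment. Without adjustment it called 2 of 57, SNORD116-22 and SNORD116-23, beside 1122 of 28869 rows on the array, so nothing is read from these 2. The 15q11-q13 count of 3 became 8 with the unadjusted t-test, for which no share over all rows was computed. Leaving out 1 line gave 1 to 4, with 1 without control line 1 and 1 without control line 3, and the cause was not tested. The SNURF and SNRPN row was called in 18 of 18 alternatives, but it was taken up after its values were seen. The line numbers did not pair the lines: over 9 pairs that share a number across groups, the correlation of the deviations from the group means was -0.15 to 0.0984. With the replicate number as a block (replicate block), 0 members were called between Cr_large and Cr_small and 3 genes of the 15q11-q13 list between Cr and control. NOP58, RUVBL2, UHRF1 and KDM1A lost their call there. Of 698 recomputed differences of single member rows, 631 moved by less than the SD of the control lines. The other 67 were 44 with 16 subtracted and 23 with each array centred on its median. None of the 11 rows at least 2-fold lower turned to higher in the Cr lines, and the members had no tested call that could reverse.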
